A study of Mus musculus with 9 samples.

Results

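Ccn3, Ecm1, Vegfc, Fstl1, Serpinf1, Angpt1 and Bgn are 7 genes for proteins that cells release into the bone marrow, where they act on the matrix or on receptors of neighbouring cells. They were followed in sorted mouse KSL cells, a marrow fraction that carries c-Kit and Sca-1, lacks lineage markers and IL7Ra and contains the blood stem cells. The members are every probe set annotated to 1 of these genes alone: 12 of 22626 probe sets, for 7 of 12393 genes. The list was chosen by results of these same arrays, the differences of signal among the groups, so those differences are given as a description and not as a test.

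The study profiled 9 samples from the bone marrow of C57BL/6 mice on Affymetrix arrays, 3 in each of 3 groups. RUNX1(41-214) samples came from mice that carried cells transduced with a retroviral vector for residues 41 to 214 of RUNX1, a stretch that holds the DNA-binding Runt domain, collected 4 months after transplantation. Runx1KO samples came from Runx1floxed/floxed MxCre+/- mice and control samples from Runx1floxed/floxed MxCre-/- mice, both collected 3 months after poly IC. Floxed alleles and poly IC are thus common to the Runx1KO and control mice. The labels of the RUNX1(41-214) mice name neither, and a group with an empty retroviral vector was not analysed here. Differences of RUNX1(41-214) cells from the other groups therefore cannot be told apart from those of transplantation, transduction and poly IC. Mx-Cre answers to interferon and is not restricted to blood cells. The labels call the samples biological replicates without saying whether each was 1 mouse or a pool, and they give no age.

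As background, matricellular proteins are secreted into the matrix but signal to cells rather than hold tissue together. CCN3 (also called NOV) is a matricellular protein of the CCN family that is known as a regulator of blood stem and progenitor cells. Angiopoietin 1 binds the receptor TIE2, encoded by Tek, on stem cells and vessels, and VEGF-C is the ligand of the lymphatic receptor VEGFR3, encoded by Flt4. ECM1 is a secreted matrix glycoprotein, FSTL1 a follistatin-like glycoprotein that binds BMP ligands, PEDF (the product of Serpinf1) an antiangiogenic serpin without protease inhibition, and biglycan (Bgn) a small leucine-rich proteoglycan that also engages Toll-like receptors.

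Since the groups differ in Runx1, the 300 bases around the start of each gene (250 before and 50 after, RefSeq, GRCm38.p6) were searched on both strands for the Runx core, spelled TGTGGT or TGCGGT. The table held 5 of the 7 genes, all but Ccn3 and Angpt1. The windows of Serpinf1, Fstl1, Vegfc and Ecm1 are shown because these genes had the clearest contrasts below, 3 downward and 1 upward in RUNX1(41-214) cells. Capitals mark matches, each sequence runs 5′ to 3′ along the gene, and the windows are chr11:75422574-75422873 (minus strand), chr16:37776805-37777104 (plus), chr8:54077282-54077581 (plus) and chr3:95739520-95739819 (minus), in that order.
Serpinf1: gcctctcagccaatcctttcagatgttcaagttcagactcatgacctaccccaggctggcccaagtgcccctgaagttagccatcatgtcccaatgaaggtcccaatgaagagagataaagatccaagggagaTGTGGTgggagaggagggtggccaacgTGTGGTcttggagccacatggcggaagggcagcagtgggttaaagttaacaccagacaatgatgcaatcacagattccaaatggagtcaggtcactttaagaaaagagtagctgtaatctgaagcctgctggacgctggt
Fstl1: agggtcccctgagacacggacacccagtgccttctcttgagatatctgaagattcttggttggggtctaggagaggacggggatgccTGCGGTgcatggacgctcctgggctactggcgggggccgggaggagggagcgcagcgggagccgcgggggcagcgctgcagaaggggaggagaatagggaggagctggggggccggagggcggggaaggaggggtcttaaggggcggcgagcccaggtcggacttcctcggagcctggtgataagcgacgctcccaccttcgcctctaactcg
Vegfc: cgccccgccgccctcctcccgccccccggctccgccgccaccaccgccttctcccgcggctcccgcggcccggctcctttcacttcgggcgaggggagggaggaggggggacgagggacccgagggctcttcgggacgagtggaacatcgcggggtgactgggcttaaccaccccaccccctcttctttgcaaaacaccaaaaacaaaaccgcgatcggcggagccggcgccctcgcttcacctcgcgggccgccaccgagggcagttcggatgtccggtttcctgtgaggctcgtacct
Ecm1: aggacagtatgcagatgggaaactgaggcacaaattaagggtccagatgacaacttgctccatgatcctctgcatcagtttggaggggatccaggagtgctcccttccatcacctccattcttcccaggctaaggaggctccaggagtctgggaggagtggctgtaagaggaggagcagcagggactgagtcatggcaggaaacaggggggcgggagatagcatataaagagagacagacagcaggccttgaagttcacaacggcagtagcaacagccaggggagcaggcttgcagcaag

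Serpinf1 held TGTGGT 2 times on the strand of the gene, from -117 to -112 and from -90 to -85 relative to its start (base 0). Fstl1 held TGCGGT once on the strand of the gene, from -163 to -158. No matches overlapped, and the windows of Vegfc, Ecm1 and Bgn held neither spelling. Of all 32851 windows of this length, 16.8% held TGTGGT, 6.45% held TGCGGT and 22.4% held either. TGTGGT occurred 2 or more times in 1.81%, and 2.86% held 2 or more matches of either spelling. A match is a run of letters and not a measured binding site. GC content was 50.7% in the Serpinf1 window, 66.7% in that of Fstl1, 70.3% in that of Vegfc and 54.7% in that of Ecm1.

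The labels of the knockout could not be checked with Runx1, because the deleted exons and the places of its probes in the transcript were not known here. Its brightest probe set (1422864_at) gave signals of 1815, 1958 and 2093 in RUNX1(41-214), 2417, 3476 and 2563 in Runx1KO and 1701, 931 and 1475 in control samples. The Runx1KO signals thus lay above all control signals, with a log2 difference of 1.05 ± 0.21 that was not called (limma adjusted p = 0.0740). Runx1KO also lay above control without overlap on 1422865_at (1.58 ± 0.37) and 1427650_a_at (1.03 ± 0.23), while 1452531_at and 1452530_a_at overlapped. In RUNX1(41-214) against control 1427650_a_at was at 1.07 ± 0.23 (limma adjusted p = 0.0291 over all probe sets). RUNX1(41-214) also lay above control without overlap on 1422864_at (0.55 ± 0.21), 1422865_at (1.38 ± 0.37) and 1452530_a_at (0.65 ± 0.24), each with an adjusted p above 0.05. On 1452531_at RUNX1(41-214) replicate 3 gave a signal of 507, where replicates 1 and 2 gave 50.2 and 81.0.

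Median signals per array ran from 125 to 147, and arrays correlated at 0.976 to 0.992 within groups and at 0.968 to 0.986 between groups. Runx1KO replicate 3 and control replicate 2 stood apart from the other 7 arrays. Their log2 ratios of 3′ to 5′ Gapdh signal, a sign of RNA integrity, were 2.13 and 1.85 against 0.979 to 1.29, and PC2, a component with 20.8% of the variance, had them at its opposite ends. Of the markers of the sorted population, 6 of 7 were measured, and their summed signal was 10200 to 11800 in RUNX1(41-214), 10600 to 12200 in Runx1KO and 9510 to 11700 in control samples. Ly6a, the gene of Sca-1, was not among those measured. Cd34 made up 28.3% to 41.9% of the sum. Without Cd34 the sums were 5930 to 7470, 7350 to 8780 and 6450 to 7560 in the same order of groups. Among the measured markers Kit rose in RUNX1(41-214) cells against control (0.57 ± 0.14, limma adjusted p = 0.0415, and 0.0637 to 0.187 without RUNX1(41-214) replicate 1 or 2, Runx1KO replicate 1 or control replicate 2 or 3) and the stem cell marker Procr fell (-0.87 ± 0.16, adjusted p = 0.00991).

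Signals are in the linear units of the deposited table. Differences are between group means of log2(signal + 16) after quantile normalisation, with the standard error from the limma fit to all 9 arrays. A call means an adjusted p (Benjamini-Hochberg over 12393 genes) under 0.05. The offset of 16 pulls differences of dim genes toward 0, and microarray signals of different genes are not comparable amounts. In RUNX1(41-214) against control cells 5 of the 7 genes were called, 1 higher and 4 lower, where 1.73% of all genes were called higher and 2.56% lower (4.28% in all). In Runx1KO against control cells 1 was called higher and 1 lower, where 0.234% and 0.113% of all genes were (0.347% in all). In RUNX1(41-214) against Runx1KO cells 1 was called higher and 4 lower, against 0.299% and 1.06% of all genes (1.36% in all). Nothing is read from these counts, since the same contrasts served to choose the genes. The comparisons share arrays, and their values for a gene are therefore given side by side.

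**Figure D1:**
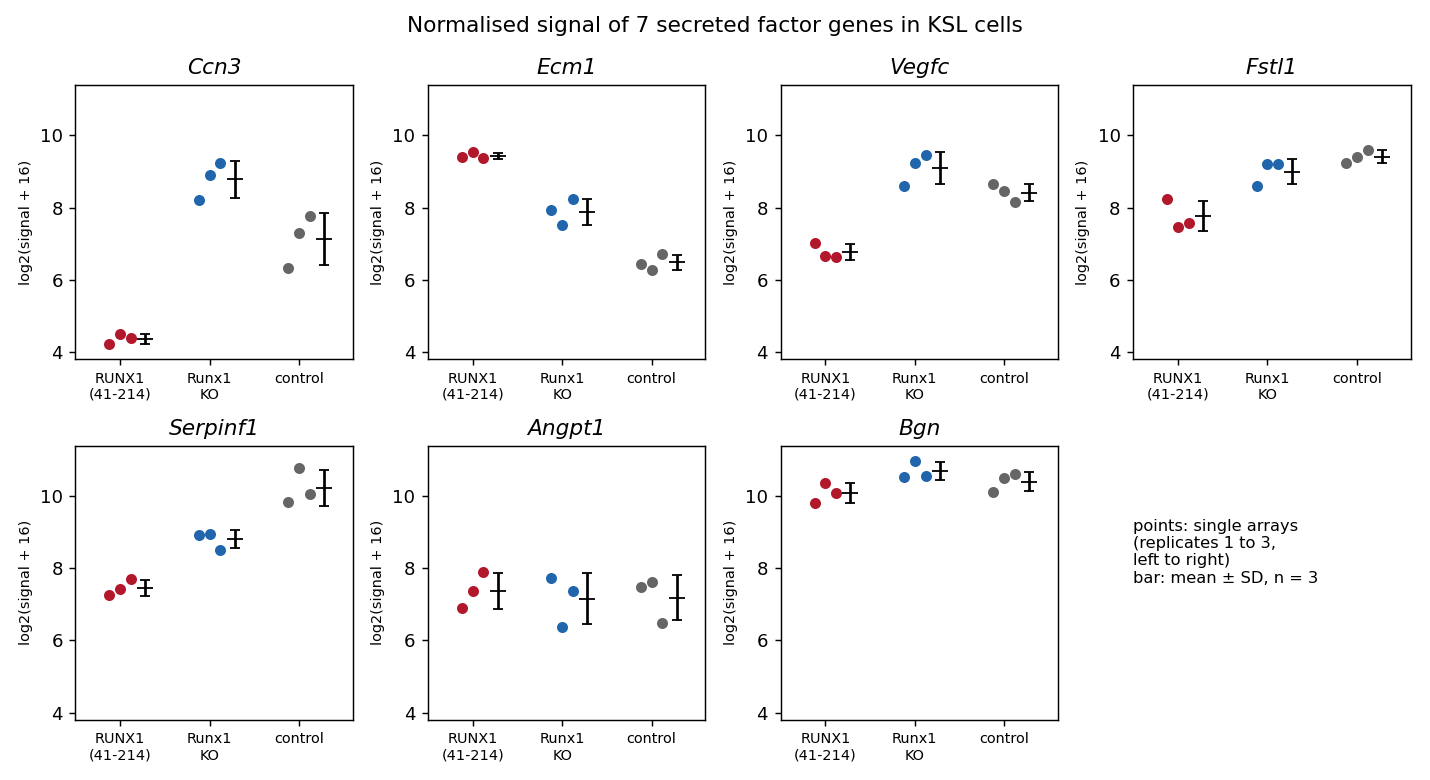
Normalised signal, log2(signal + 16), of the 7 genes on each of the 9 arrays, 1 probe set per gene, with the mean ± SD of 3 arrays per group. Ccn3 sits at 4.21 to 4.49 on the RUNX1(41-214) arrays and above 6 on all others, with Runx1KO highest. Ecm1 is highest on the RUNX1(41-214) and lowest on the control arrays, and Angpt1 overlaps among all 3 groups.

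Ccn3 lay below control in RUNX1(41-214) cells and above control in Runx1KO cells, where the difference was not called. Its brighter probe set (1426851_a_at) gave signals of 2.53, 6.72 and 4.95 in RUNX1(41-214) cells, 297.9, 485 and 554 in Runx1KO cells and 66.7, 145 and 207 in control cells. No values overlapped between any 2 groups. On their own arrays the RUNX1(41-214) values lay at the 4.20 to 10.2 percentile of all probe sets, the Runx1KO values at the 59.7 to 71.5 and the control values at the 40.7 to 54.7 percentile. The mean was 4.36 ± 0.14 in RUNX1(41-214), 8.79 ± 0.51 in Runx1KO and 7.13 ± 0.73 in control cells (SD of log2 signal over 3 arrays).

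The log2 difference of Ccn3 was -2.77 ± 0.35 for RUNX1(41-214) against control, 1.66 ± 0.35 for Runx1KO against control and -4.42 ± 0.35 for RUNX1(41-214) against Runx1KO. For a gene this dim the size hangs on the offset: RUNX1(41-214) against control was at -4.52 with an offset of 1 and at -1.72 with an offset of 50, and against Runx1KO at -6.31 and -3.22. Without the offset, the mean deposited signal of RUNX1(41-214) cells was 0.0339 of the control mean and 0.0106 of the Runx1KO mean. The other Ccn3 probe set (1426852_x_at), of a type (suffix x) that can also bind related transcripts, gave 2.95 to 4.31 in RUNX1(41-214), 307 to 581 in Runx1KO and 59.4 to 219 in control cells. The files hold no detection calls, so these lowest signals cannot be told from no expression.

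Other CCN family genes were dim, with mean log2 signals of 4.79 for Ccn4, 5.11 for Ccn2, 5.16 for Ccn5 and 5.32 for Ccn1, near the lower quartile of the arrays (deposited signals of 19.0 to 22.1), where changes are hard to detect. Of 5 listed, 4 were measured and 0 were called by limma in any of the 3 comparisons, with 0 at an unadjusted p under 0.05. Their differences ran from -0.15 to 0.34 in RUNX1(41-214) against control and from -0.20 to 0.04 in Runx1KO against control. The lowest p-values of the list were those of Ccn5 (0.34 ± 0.30), Ccn4 (-0.20 ± 0.13) and, in RUNX1(41-214) against Runx1KO, Ccn1 (0.24 ± 0.20), with adjusted p between 0.667 and 0.846.

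Known partners of CCN3 include the receptor Notch1, integrins and the gap junction protein connexin 43, encoded by Gja1. Notch1 fell in RUNX1(41-214) cells, at 9.63, 9.63 and 9.34 (log2 signal) against 10.90, 10.70 and 10.80 in Runx1KO and 11.46, 10.91 and 11.23 in control cells. The RUNX1(41-214) arrays were below all others, and the log2 differences were -1.67 ± 0.16 against control (limma adjusted p = 0.000157) and -1.26 ± 0.16 against Runx1KO (adjusted p = 0.00308). For Runx1KO against control the difference was -0.40 ± 0.16 and was not called (adjusted p = 0.595). Gja1 had values of 6.24, 5.75 and 6.49 in RUNX1(41-214), 7.45, 6.83 and 7.84 in Runx1KO and 8.70, 9.31 and 9.21 in control cells, with no overlap between groups. It fell by 2.91 ± 0.30 in RUNX1(41-214) against control (adjusted p = 0.000227). Its Runx1KO difference was -1.70 ± 0.30 (adjusted p = 0.0424), and that call was lost when any 1 of the 9 arrays was left out (adjusted p between 0.05003 and 0.172).

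Itga5, the integrin chain of the fibronectin receptor, rose in RUNX1(41-214) against control by 1.28 ± 0.25 (adjusted p = 0.0136). The call was lost without RUNX1(41-214) replicate 1 or 2 or control replicate 1 or 3 (adjusted p up to 0.0667, differences from 1.09 to 1.496), and with the mean of its probe sets (0.59). The size of this dim gene's difference was 2.18 with an offset of 1 and 0.70 with an offset of 50. The brighter integrin chain Itgb5 went the other way without a call, at -0.88 ± 0.24 against control (limma adjusted p = 0.0645) and without overlap. Itgav was at 0.55 ± 0.27, Itgb1 at -0.11 ± 0.29 and Itgb3 at 0.01 ± 0.12 in the same comparison, also not called. Of the whole list of receptors and partners of the members other than Angpt1 and Vegfc, 17 of 18 were measured. Of these 1 rose and 2 fell in RUNX1(41-214) against control, in Runx1KO against control 1 fell, and in RUNX1(41-214) against Runx1KO 1 fell, with medians of 0.01, 0.07 and -0.06. Listed here without a call were the PEDF-binding lipase gene Pnpla2 (0.30 ± 0.21 in RUNX1(41-214) and 0.32 ± 0.21 in Runx1KO against control) and that of Mmp9, a protease bound by ECM1 (-0.13 ± 0.20 and -0.14 ± 0.20).

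Ecm1 was highest in RUNX1(41-214) cells, and it was the 1 member called higher there. Its single probe set (1448613_at) gave 649, 703 and 641 in RUNX1(41-214), 237, 169 and 275 in Runx1KO and 73.6, 64.6 and 94.5 in control cells. The 3 groups formed separate steps without overlap, and the RUNX1(41-214) arrays lay closest together. Means were 9.43 ± 0.09 in RUNX1(41-214), 7.89 ± 0.36 in Runx1KO and 6.48 ± 0.22 in control cells (SD of log2 signal over 3 arrays). The log2 difference was 2.95 ± 0.23 for RUNX1(41-214) against control, 1.41 ± 0.23 for Runx1KO against control and 1.54 ± 0.23 for RUNX1(41-214) against Runx1KO.

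The call of Ecm1 in Runx1KO cells was lost in 8 of 9 omissions of single arrays, all but that of Runx1KO replicate 2, with differences from 1.24 to 1.60. It stayed past the threshold in each omission for both comparisons of RUNX1(41-214) cells. Without Runx1KO replicate 3 and control replicate 2, the arrays that stood apart, the difference was 1.15 in Runx1KO and 2.86 in RUNX1(41-214) against control. Genes whose pattern over the 9 arrays lay nearest to Ecm1 (root mean square difference of log2 values after centring each gene) were Fam189b at 0.37 and the platelet and endothelial adhesion receptor gene Selp at 0.42, where Ecm1 itself varied with an SD of 1.30. For Ccn3, with an SD of 1.99, the nearest were the immunoglobulin gene Ighm at 0.88 and the guanylate-binding protein gene Gbp6 at 0.99, both farther off.

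Vegfc was lower in RUNX1(41-214) cells and not in Runx1KO cells. Its probe set (1419417_at) gave 103, 77.8 and 81.9 in RUNX1(41-214), 388, 618 and 644 in Runx1KO and 388, 341 and 277 in control cells. The RUNX1(41-214) values were below all others, while Runx1KO and control values overlapped. Means were 6.77 ± 0.22 in RUNX1(41-214), 9.10 ± 0.44 in Runx1KO and 8.42 ± 0.24 in control cells (SD of log2 signal over 3 arrays). The log2 difference was -1.64 ± 0.26 for RUNX1(41-214) against control, 0.69 ± 0.26 for Runx1KO against control and -2.33 ± 0.26 for RUNX1(41-214) against Runx1KO. Dock1, a Rac activator of cell migration, and Epb41l4b had the nearest patterns, both at 0.37 with an SD of 1.07 for Vegfc.

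Fstl1 was lower in RUNX1(41-214) cells in both of its probe sets. The brighter one (1448259_at) gave 276, 148 and 173 in RUNX1(41-214), 388, 597 and 542 in Runx1KO and 588, 673 and 758 in control cells. The groups did not overlap on the normalised scale, although the highest Runx1KO signal exceeded the lowest control signal in deposited units. Means were 7.76 ± 0.42 in RUNX1(41-214), 8.999 ± 0.34 in Runx1KO and 9.41 ± 0.18 in control cells. The log2 difference was -1.66 ± 0.26 for RUNX1(41-214) against control, -0.42 ± 0.26 for Runx1KO against control and -1.24 ± 0.26 for RUNX1(41-214) against Runx1KO.

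The other Fstl1 probe set (1416221_at) was at -1.46 ± 0.31, -0.41 ± 0.31 and -1.06 ± 0.31 in the same comparisons, so that both probes moved by similar amounts. The call against Runx1KO was lost in 6 of 9 omissions, those of RUNX1(41-214) replicates 2 and 3, Runx1KO replicates 2 and 3 and control replicates 1 and 3, with differences from -1.47 to -1.09. The nearest patterns were those of the signalling adaptor Grb10 (0.21) and the protease Bace1 (0.25), against an SD of 0.80 for Fstl1.

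Serpinf1 showed a graded order in its brighter probe set (1416168_at), with 125, 143 and 191 in RUNX1(41-214), 491, 503 and 335 in Runx1KO and 894, 1781 and 1048 in control cells. The groups did not overlap, and control replicate 2, an array that stood apart, was the highest of all. Means were 7.46 ± 0.22 in RUNX1(41-214), 8.80 ± 0.25 in Runx1KO and 10.23 ± 0.50 in control cells (SD of log2 signal over 3 arrays). The log2 difference was -2.77 ± 0.26 for RUNX1(41-214) against control, -1.43 ± 0.26 for Runx1KO against control and -1.34 ± 0.26 for RUNX1(41-214) against Runx1KO. Without Runx1KO replicate 3 and control replicate 2 the first was -2.50 and the second -1.01.

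This order was absent from the dimmer Serpinf1 probe set (1453724_a_at). It gave 105, 91.1 and 145 in RUNX1(41-214), 114, 93.2 and 71.9 in Runx1KO and 112, 140 and 94.7 in control cells, all overlapping, with differences of 0.11 ± 0.23, -0.25 ± 0.23 and 0.36 ± 0.23. The mean of both probe sets was therefore closer to 0, at -1.33 for RUNX1(41-214) and -0.84 for Runx1KO against control. The Runx1KO call of Serpinf1 was lost in each of the 9 omissions of single arrays (adjusted p up to 0.190), and the call against Runx1KO in 5 of 9, those of the 3 RUNX1(41-214) replicates and of Runx1KO replicates 1 and 2, with differences from -1.49 to -1.23. Il17re, an interleukin 17 receptor subunit gene (0.35), and the asparagine synthetase gene Asns (0.39) had the nearest patterns, with an SD of 1.24 for Serpinf1.

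No other measured serpin was called. Of 16 listed, 12 were measured, and limma called 0 in each comparison, with 1, 0 and 1 at an unadjusted p under 0.05 in RUNX1(41-214) against control, Runx1KO against control and RUNX1(41-214) against Runx1KO. The collagen chaperone gene Serpinh1 had the lowest p against control (-0.67 ± 0.28 in RUNX1(41-214), adjusted p = 0.268, and -0.50 ± 0.28 in Runx1KO, adjusted p = 0.798). Its means of 5.77 in RUNX1(41-214), 5.93 in Runx1KO and 6.44 in control cells had the order of Serpinf1. Only RUNX1(41-214) and control values of Serpinh1 did not overlap. Against Runx1KO it was Serpinb1a, an inhibitor of neutrophil proteases, at 0.38 ± 0.14 (adjusted p = 0.299).

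**Figure D2:**
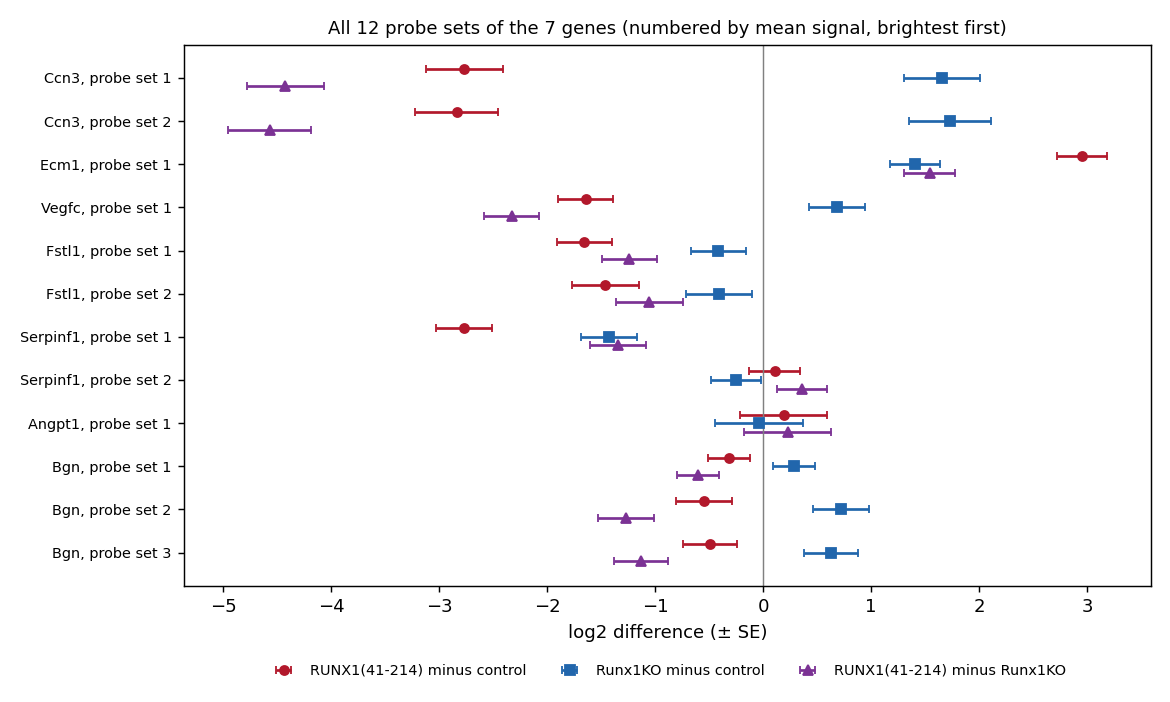
Log2 difference ± SE (x axis) of each of the 12 probe sets in the 3 comparisons, the probe sets of a gene numbered from the brightest. The probe sets of Ccn3 and of Fstl1 lie side by side, those of Bgn share their directions with different sizes, and the dimmer Serpinf1 probe set lies near 0 where the brighter one is at -2.77 and -1.43 against control.

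Bgn gave high signals in every group and differed little on its brightest probe set (1416405_at). That probe set gave 882, 1299 and 1062 in RUNX1(41-214), 1518, 2064 and 1409 in Runx1KO and 1078, 1426 and 1501 in control cells. RUNX1(41-214) values were below Runx1KO values without overlap, and both overlapped with control. The log2 difference was -0.31 ± 0.20 for RUNX1(41-214) against control, 0.29 ± 0.20 for Runx1KO against control and -0.60 ± 0.20 for RUNX1(41-214) against Runx1KO.

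The dimmer Bgn probe sets (1448323_a_at and 1437889_x_at) moved more. They were at -0.55 ± 0.26 and -0.49 ± 0.25 in RUNX1(41-214) against control, at 0.72 ± 0.26 and 0.63 ± 0.25 in Runx1KO against control and at -1.27 ± 0.26 and -1.13 ± 0.25 in RUNX1(41-214) against Runx1KO. On both, all 3 groups were apart without overlap, with Runx1KO highest, control between and RUNX1(41-214) lowest. Over the 12 probe sets the groups did not overlap for 9 in RUNX1(41-214) against control, 7 in Runx1KO against control and 10 in RUNX1(41-214) against Runx1KO, and over the 7 genes for 5, 4 and 6. Of all genes, 20.3%, 10.5% and 18.8% did not overlap in these comparisons. Hid1 and the transcription factor subunit gene Taf6, both at 0.19, had patterns nearest to Bgn (SD 0.35).

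Of the other small leucine-rich proteoglycans, 10 of 11 were measured, and Chad (chondroadherin, a collagen-binding protein of cartilage) was the 1 that changed. It fell by 1.01 ± 0.22 in RUNX1(41-214) against control (adjusted p = 0.0229) and fell by 1.12 ± 0.22 against Runx1KO (adjusted p = 0.0280). The first call was lost without RUNX1(41-214) replicate 2 or 3 or control replicate 1 or 3 (adjusted p up to 0.0959), and the second without RUNX1(41-214) replicate 2 or 3 or any 1 of the Runx1KO replicates (up to 0.137). With an offset of 1 the differences were -1.55 and -1.69, and with an offset of 50 they were -0.58 and -0.66. In Runx1KO against control limma called 0 of the 10, with 1 at an unadjusted p under 0.05, the corneal and cartilage proteoglycan gene Lum (-0.42 ± 0.18, adjusted p = 0.648). Medians of the list were 0.02 in RUNX1(41-214) against control, 0.09 in Runx1KO against control and 0.01 in RUNX1(41-214) against Runx1KO.

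Of 24 other matricellular and follistatin-domain genes, 21 were measured and 0 were called by limma in any comparison, with 2, 1 and 2 at an unadjusted p under 0.05 in RUNX1(41-214) against control, Runx1KO against control and RUNX1(41-214) against Runx1KO. The medians were 0.14, -0.12 and 0.13 in that order. The thrombospondin Thbs3 came closest in both comparisons of RUNX1(41-214) cells (0.74 ± 0.22 against control, adjusted p = 0.0950, and 0.73 ± 0.22 against Runx1KO, adjusted p = 0.193), and the proteoglycan Spock3 in Runx1KO against control (-0.31 ± 0.13, adjusted p = 0.587).

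Angpt1 did not separate the groups. Its probe set (1421441_at) gave 93.1, 135 and 220 in RUNX1(41-214), 207, 66.8 and 146 in Runx1KO and 169, 185 and 76.8 in control cells. Values overlapped in all 3 comparisons, and each group spanned more than its mean differed from the others. Means were 7.38 ± 0.50, 7.15 ± 0.71 and 7.19 ± 0.63 (SD of log2 signal over 3 arrays), and the differences were 0.19 ± 0.40 for RUNX1(41-214) against control, -0.04 ± 0.40 for Runx1KO against control and 0.23 ± 0.40 for RUNX1(41-214) against Runx1KO. With this spread, smaller differences were not detectable. The nearest patterns were those of Phax (0.27) and the adaptor Stap1 (0.32), against an SD of 0.55 for Angpt1.

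Tek, the receptor of angiopoietin 1, was higher in both altered groups. It was at 10.58, 10.49 and 10.19 (log2 signal) in RUNX1(41-214), 9.73, 10.02 and 10.34 in Runx1KO and 8.92, 8.46 and 9.09 in control cells. All 6 values lay above the control values. Tek rose by 1.59 ± 0.22 in RUNX1(41-214) against control (adjusted p = 0.00146). In Runx1KO against control it was at 1.21 ± 0.22 (adjusted p = 0.0454), a call that was lost in each of the 9 omissions of single arrays (adjusted p between 0.0613 and 0.191, differences from 1.03 to 1.35) and with the replicate number as a block.

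Tek was the 1 gene called among the 14 of 16 measured angiopoietin and VEGF ligands and receptors. In RUNX1(41-214) against Runx1KO limma called 0 of them, with 1 at an unadjusted p under 0.05, the related receptor Tie1 (-1.14 ± 0.29, adjusted p = 0.111). The VEGF-C receptor gene Flt4 was at 0.08 ± 0.20 in RUNX1(41-214) and 0.02 ± 0.20 in Runx1KO against control, and its coreceptor Nrp2 at -0.11 ± 0.19 and -0.12 ± 0.19. The medians of the list were 0.00 in RUNX1(41-214) against control, -0.05 in Runx1KO against control and 0.01 in RUNX1(41-214) against Runx1KO.

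**Figure D3:**
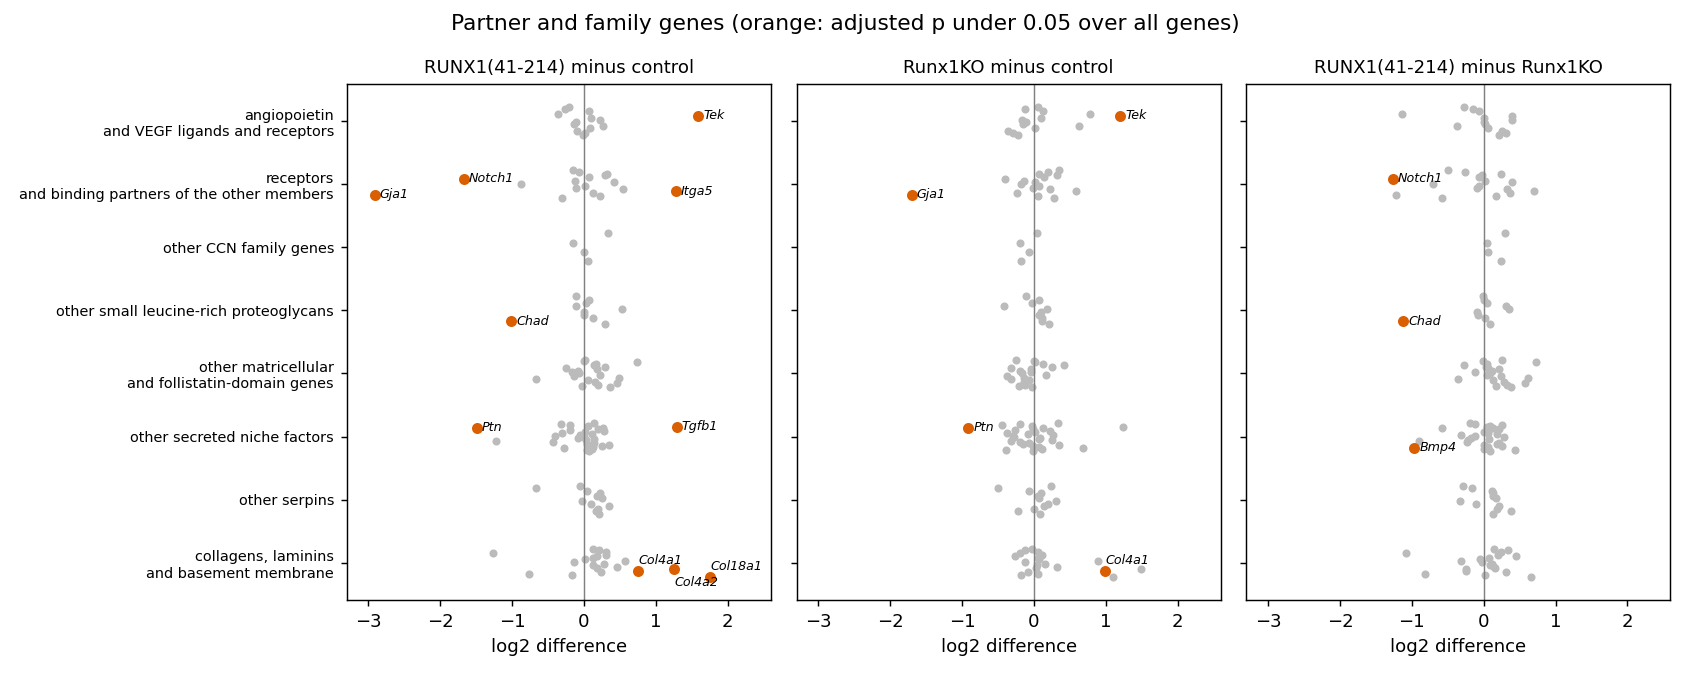
Log2 difference (x axis) of the 128 measured partner and family genes in 8 lists, 1 point per gene, with genes past the threshold over all genes in orange and named. Of these 6 rose and 4 fell in RUNX1(41-214) against control, in Runx1KO against control 2 rose and 2 fell, and in RUNX1(41-214) against Runx1KO 3 fell.

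Among other secreted niche factors, 30 of 34 were measured. Ptn, the heparin-binding growth factor pleiotrophin, fell by 1.49 ± 0.16 in RUNX1(41-214) against control (adjusted p = 0.000280), with 4.17, 4.23 and 4.15 against 5.95, 5.69 and 5.39 (log2 signal), and the RUNX1(41-214) values were close to the lowest the offset allows. Its size was -3.52 with an offset of 1, -0.71 with an offset of 50 and -0.83 with the mean of its probe sets. In Runx1KO cells Ptn was at 4.88, 4.72 and 4.68, a difference of -0.91 ± 0.16 from control (adjusted p = 0.0393) that was lost in 8 of 9 omissions, all but that of control replicate 3 (adjusted p up to 0.162). This difference was -1.57 with an offset of 1, -0.48 with an offset of 50 and -0.47 with the mean of its probe sets. Tgfb1, the transforming growth factor that holds stem cells quiescent, rose in RUNX1(41-214) against control by 1.29 ± 0.23 (adjusted p = 0.00859, 0.0509 without RUNX1(41-214) replicate 1). It was at 1.24 ± 0.23 in Runx1KO, not called (adjusted p = 0.0533). Bmp4, a morphogen bound by FSTL1, was lower by 0.96 ± 0.15 in RUNX1(41-214) than in Runx1KO (adjusted p = 0.00822, 0.0551 without RUNX1(41-214) replicate 2), and this difference was -1.54 or -0.53 with an offset of 1 or 50. Against control Bmp4 was at 0.68 ± 0.15 in Runx1KO (limma adjusted p = 0.100) and at -0.28 ± 0.15 in RUNX1(41-214) cells (adjusted p = 0.422). Neither was called, and the larger part of the gap lay on the Runx1KO side. The stromal chemokine Cxcl12 was at 0.25 ± 0.21 in RUNX1(41-214) and -0.01 ± 0.21 in Runx1KO against control, and Kitl, the ligand of c-Kit, at 0.02 ± 0.20 and 0.01 ± 0.20.

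Signals of collagen IV chains were higher in both altered groups. Col4a1, a chain of collagen IV, rose by 0.75 ± 0.14 in RUNX1(41-214) (adjusted p = 0.00937, 0.0666 without RUNX1(41-214) replicate 1) and by 0.99 ± 0.14 in Runx1KO cells against control (adjusted p = 0.0108). The Runx1KO call was lost without Runx1KO replicate 2 or 3 (adjusted p up to 0.0576). Its values were 10.42, 10.28 and 10.30 in RUNX1(41-214), 10.49, 10.68 and 10.55 in Runx1KO and 9.66, 9.59 and 9.50 in control cells, and both altered groups lay wholly above control. Its partner chain Col4a2 rose by 1.26 ± 0.29 in RUNX1(41-214) (adjusted p = 0.0305, up to 0.151 and lost without RUNX1(41-214) replicate 1 or 2 or control replicate 1 or 3) and was at 1.495 ± 0.29 in Runx1KO against control (adjusted p = 0.0580). Col18a1, the collagen that gives rise to endostatin, rose by 1.76 ± 0.33 in RUNX1(41-214) (adjusted p = 0.00953, 0.0528 without RUNX1(41-214) replicate 1). Of 20 measured collagen, laminin and basement membrane genes, 3 rose in RUNX1(41-214) and 1 in Runx1KO against control, and in RUNX1(41-214) against Runx1KO limma called 0, with 3 at an unadjusted p under 0.05, the lowest of them that of the collagen I chain Col1a2 (-0.82 ± 0.22, adjusted p = 0.124).

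Over all 8 lists, 10 of 128 measured genes (7.81%) changed in RUNX1(41-214) against control beside 4.28% of all genes, 4 (3.12%) in Runx1KO against control beside 0.347%, and 3 (2.34%) in RUNX1(41-214) against Runx1KO beside 1.36%. The median differences were 0.07, 0.01 and 0.06, next to 0.02, -0.00 and 0.02 over all genes. The lists were written with earlier results of these arrays known, so that the counts describe these genes and do not set them apart from others. In Runx1KO against control the count of 4 was between 0 and 2 whenever 1 array was left out. With 0, without Runx1KO replicate 2, 14 of the genes had an unadjusted p under 0.05.

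Stromal and endothelial cells are known sources of several of these factors, and limma called 0 genes of either marker list in any comparison, with up to 5 at an unadjusted p under 0.05 (the endothelial list in Runx1KO against control). The summed signal of 9 of 10 stromal markers was 1350 to 1370 in RUNX1(41-214), 1260 to 1520 in Runx1KO and 1170 to 1650 in control samples and overlapped, but Pdgfrb made up 65.4% to 80.0% of it. Without Pdgfrb the sums were 308 to 356, 308 to 383 and 329 to 406. Single markers went either way: Col1a2 lay below control in RUNX1(41-214) cells (-0.76 ± 0.22) and Acta2 above (0.44 ± 0.18), both without overlap, while Col1a1 and Col3a1 lay under the lower quartile on every array. The 8 endothelial markers summed to 4240 to 4970, 3980 to 7320 and 3070 to 4880 in the same order, of which Egfl7 made up 40.5% to 59.0%. Without Egfl7 they summed to 2030 to 2400 in RUNX1(41-214) and 2370 to 3800 in Runx1KO samples, both above the 1550 to 2000 of control samples. Single endothelial markers went either way too. In RUNX1(41-214) cells 5 lay above and 3 below control, with log2 differences from -0.78 to 0.70. In Runx1KO cells 6 lay above and 2 below control, with differences from -1.04 to 0.78. No measured marker was at 0.

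Summed markers of some other blood lineages differed between the groups. Those of megakaryocytes and platelets (8 of 10 measured) summed to 9390 to 12200 in RUNX1(41-214), 6370 to 8070 in Runx1KO and 3320 to 4650 in control samples, the same order as Ecm1 and without overlap. Without Itga2b, the brightest, the sums were 5240 to 8520, 4070 to 5310 and 2410 to 3750. In this list the integrin chain Itga2b, the platelet receptor Gp5 and Treml1 rose in both RUNX1(41-214) and Runx1KO against control (Treml1 by 3.38 ± 0.22 and 2.67 ± 0.22). The other 5 were not called: Vwf was at -0.72 ± 0.36 and -0.12 ± 0.36, and Pf4 at 0.76 ± 0.27 and -0.07 ± 0.27. In all, 7 of 8 lay above control in RUNX1(41-214) and 5 of 8 in Runx1KO cells, and 0 of the 8 lay under the lower quartile on every array. T and NK cell markers (5 of 6 measured) summed to 172 to 332, 449 to 1040 and 1110 to 1390 in the same order of groups, the order of Serpinf1, but Nkg7 alone made up 69.4% to 89.9% of the sum, with the T cell gene Cd3e under the lower quartile on every array. Without Nkg7 the sums were 52.7 to 82.6, 80.2 to 104 and 151 to 171. RUNX1(41-214) and Runx1KO then overlapped, both below control. Within the T and NK list Nkg7, Gzmb and Cd247 fell in RUNX1(41-214) and Gzmb in Runx1KO against control (the Gzmb call in Runx1KO was lost in 7 of 9 omissions and that of Cd247 in 3 of 9, adjusted p up to 0.197 and 0.0667, and Cd247 was at -0.38 with the mean of its probe sets). Cd3g went the other way without a call (0.50 ± 0.26 in RUNX1(41-214) and 0.25 ± 0.26 in Runx1KO cells). B cell markers (5 of 6) summed to 585 to 712 in RUNX1(41-214), 530 to 1350 in Runx1KO and 803 to 912 in control samples, of which Cd79b made up 49.7% to 90.8%. Without Cd79b the sums were 53.9 to 79.9, 99 to 677 and 129 to 437, with RUNX1(41-214) below both other groups. Of the 5 genes, 2 lay above and 3 below control in RUNX1(41-214) cells. Erythroid markers (6 of 7) summed to 1660 to 3110, 1730 to 2790 and 2100 to 4580, and granulocyte markers (8 of 8) to 8730 to 11500, 7090 to 10800 and 6930 to 9500, both overlapping among the groups. Mpo made up 47.7% to 66.2% of the granulocyte sum. Without Mpo the sums were 3980 to 5770, 2510 to 3830 and 2840 to 4730, with RUNX1(41-214) above Runx1KO without overlap. Limma called 0 granulocyte markers in any comparison. Tfrc made up 49.9% to 85.6% of the erythroid sum. Without Tfrc the sums still overlapped, at 631 to 1560, 288 to 869 and 303 to 2200. Within the erythroid list the haem synthesis gene Alas2 and the membrane anion exchanger Slc4a1 rose in RUNX1(41-214) against both other groups, while Tfrc fell against control, and each of these calls was lost in 2 to 7 of 9 omissions. The B cell gene Vpreb1 fell in RUNX1(41-214) against control, a call lost in 6 of 9. The sorting gate was lineage-negative and IL7Ra-negative, and how far it removed mature cells of these lineages was not tested. The part of these lineages in the differences of the secreted factors was not tested, and in RNA of whole sorted samples fewer cells of a type and less RNA per cell cannot be told apart.

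**Figure D4:**
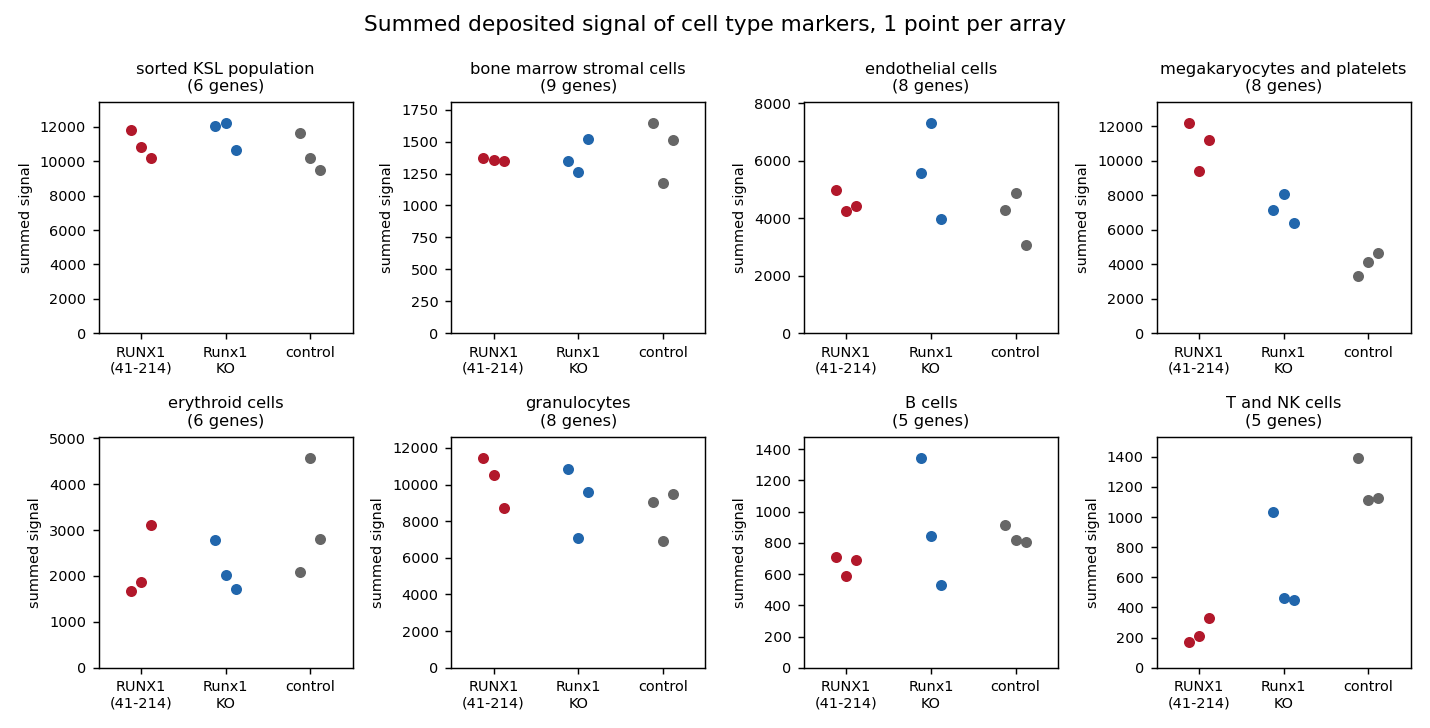
Summed deposited signal (y axis, linear, from 0) of 8 lists of cell type markers on each array, by group. Megakaryocyte and platelet markers are highest in RUNX1(41-214), intermediate in Runx1KO and lowest in control samples without overlap. T and NK cell markers run the opposite way, but RUNX1(41-214) and Runx1KO overlap once Nkg7 is left out. The sums of stromal and of endothelial markers overlap among the groups, the endothelial ones not against control once Egfl7 is left out.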

How the data were processed

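The authors deposited 1 table of linear signal intensity values (22690 probe sets, 0.53 to 20215), whose summarisation and scaling are not given in the sources here. Per the labels, RNA came from Qiagen microcolumns and was biotinylated by the two-cycle labelling of Affymetrix, whose amplification makes signals relative. The 64 control probe sets were set aside. Signals were converted to log2(signal + 16) and quantile normalised, since array medians spanned 0.211. Names came from the platform's probe table: 20380 probe sets carried 1 symbol, 691 several and 1555 none, and the RefSeq gene table changed 0 symbols. The probe set of highest mean stood for a gene, without a filter on low signals.

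Group means came from 1 linear model of the 9 arrays in limma 3.58.1 under R 4.3.3 (lmFit, and eBayes with a trend, 6 residual and 5.60 prior degrees of freedom), two-sided, adjusted by Benjamini-Hochberg over 12393 genes. With 3 arrays a group the median SE of a difference was 0.20. Steps were tested on simulated data first. The members, the 8 partner lists (145 genes, 128 measured) and the marker lists were chosen with earlier results of these data known. Named are the members, each list gene past the threshold or else that of lowest p, and the 2 named genes above the median signal with the nearest pattern. Partners that were not called but are named for their role (Itgb5, Itgav, Itgb1, Itgb3, Pnpla2, Mmp9, Flt4, Nrp2, Cxcl12, Kitl) were chosen after their values were seen. Alternatives changed the normalisation, the offset, the probe set rule, the filter, the arrays fitted and the weights. Samples with the same replicate number did not deviate together throughout (correlations of -0.174 to 0.418).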

Additional observations from a re-analysis of the deposited data

How the results depend on the processing

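The 21 member differences had 420 values under the alternatives, of which 408 stayed within 1 residual SD and 12 moved further, with 0 called differences changing direction. The largest moves were those of Ccn3 with the offset and of Serpinf1 with the mean of its probe sets. In Runx1KO against control the count of all genes called, 43, was 65 without dim genes, 24 with every probe set tested, 9 with only the 6 arrays of these groups, 18 with a minimum fold of 1.2 and 14 to 50 with 1 array left out. The partner count of 4 was 2 with an offset of 1, with array weights and without control replicate 2 and Runx1KO replicate 3, 1 with every probe set tested, 0 with only 6 arrays or a minimum fold (15 and 9 genes at an unadjusted limma p under 0.05) and 0 to 2 with 1 array left out. In RUNX1(41-214) against control 531 was 294 with a minimum fold and 297 to 612 with 1 array left out, and the partner count of 10 was 5 to 11. In RUNX1(41-214) against Runx1KO 168 was 371 with array weights, 90 with a minimum fold and 74 to 207 with 1 array left out, and the partner count of 3 was 8 with array weights and 1 to 4 with 1 array left out. The causes were not tested. The replicate block gave 48, 539 and 171 genes in these comparisons. Replicate numbers are labels with no stated pairing, and 0 of the 9 arrays correlated best with their own number in both other groups. With the block Ccn3 in Runx1KO against control passed at 1.66 (adjusted p = 0.0238) and Tek and Serpinf1 in that comparison and Fstl1 in RUNX1(41-214) against Runx1KO did not pass.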
